A study of Mus musculus with 20 samples.

Results

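The response of mouse bone marrow to oxaliplatin was read across every gene of the deposited count table. All genes were members: of 55774 lines, 287 that repeated an identifier and 1 that lacked a value were dropped, 55486 genes remained, and 22363 of them had enough counts to be tested. The series holds 20 samples from 2 tissues, and the 10 bone marrow samples were used here, 5 from vehicle mice and 5 from oxaliplatin mice. The study used C57BL/6 mice, given as male and female, that were 10 weeks old at the start. They were injected intraperitoneally once a week for 8 weeks with 10 mg/kg oxaliplatin, dissolved in 5% dextrose, or with the dextrose solution only. Marrow was spun from the tibia and femur of each mouse 6 days after the last dose, so each library holds the mixed cells of the marrow. Mice of the groups shared the strain, the dextrose and the handling, and the same replicate number in the 2 groups belonged to different mice.

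Oxaliplatin is a platinum compound that crosslinks DNA, and dividing cells are the most exposed to it. Bone marrow is among the fastest dividing tissues of the body: stem and progenitor cells give rise there to red cells, platelets, granulocytes, monocytes and B cells. These cells lie among stromal cells, blood sinusoids, bone and fat cells, which supply growth factors and fill the cavity when blood formation is low. In bulk RNA, fewer cells of a type and less RNA per cell cannot be told apart, and this holds for every gene below.

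Total counts lay between 31062858 and 39293176 in the vehicle libraries and between 30660153 and 41140527 in the oxaliplatin libraries. The first principal component separated the groups, and the second, with 17.7% of the variance, had oxaliplatin mouse 3 at one end and oxaliplatin mouse 5 at the other. Some oxaliplatin libraries stood apart in ways that the labels do not give. Transcripts of the mitochondrial genome took 0.215% and 0.171% of the counts in oxaliplatin mice 2 and 3 and 0.589% to 0.765% in the other 8 libraries. The summed levels of neutrophil secondary granule and mature neutrophil genes were low in oxaliplatin mice 3 and 4, and oxaliplatin mouse 5 was the lowest of its group for many of the rises named below. The labels do not give the sex of a mouse. Ddx3y, a gene of the Y chromosome, was at 44.0 to 52.0 CPM (counts scaled to a common library size, with TMM factors) in vehicle mice and at 57.6, 51.1, 57.0, 54.7 and 26.7 CPM in oxaliplatin mice 1 to 5. Xist, the RNA of the inactive X chromosome, was at 0.653 to 2.88 CPM in all 10 libraries. Every library thus held Y chromosome transcripts with little Xist, and none had the pattern of a female mouse. A covariate of Y-linked genes used below therefore does not separate the sexes.

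The level of 5221 of the 22363 tested genes (23.3%) differed between oxaliplatin and vehicle mice, and the calls were split evenly by direction, with 2589 genes higher (11.6%) and 2632 lower (11.8%). A gene was called when the Benjamini-Hochberg adjusted p of the edgeR quasi-likelihood test was under 0.05 and the fold change was beyond 1.5 in either direction. The 5 vehicle and the 5 oxaliplatin values did not overlap for 4039 of the called genes, and over all tested genes they did not overlap for 24.9%. The even split depended on the scaling: with library size alone in place of TMM, 63.4% of 5415 calls were higher, and the median log2 fold change of all tested genes was 0.11 in place of -0.04. Large changes were mostly rises. A fold beyond 16 was reached by 88 genes that rose and 17 that fell, and a fold beyond 64 by 26 that rose and 0 that fell. Genes varied more among the oxaliplatin mice than among the vehicle mice: the SD of log2 CPM was greater in the oxaliplatin group for 74.7% of tested genes, with a median of 0.365 against 0.224.

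**Figure D1:**
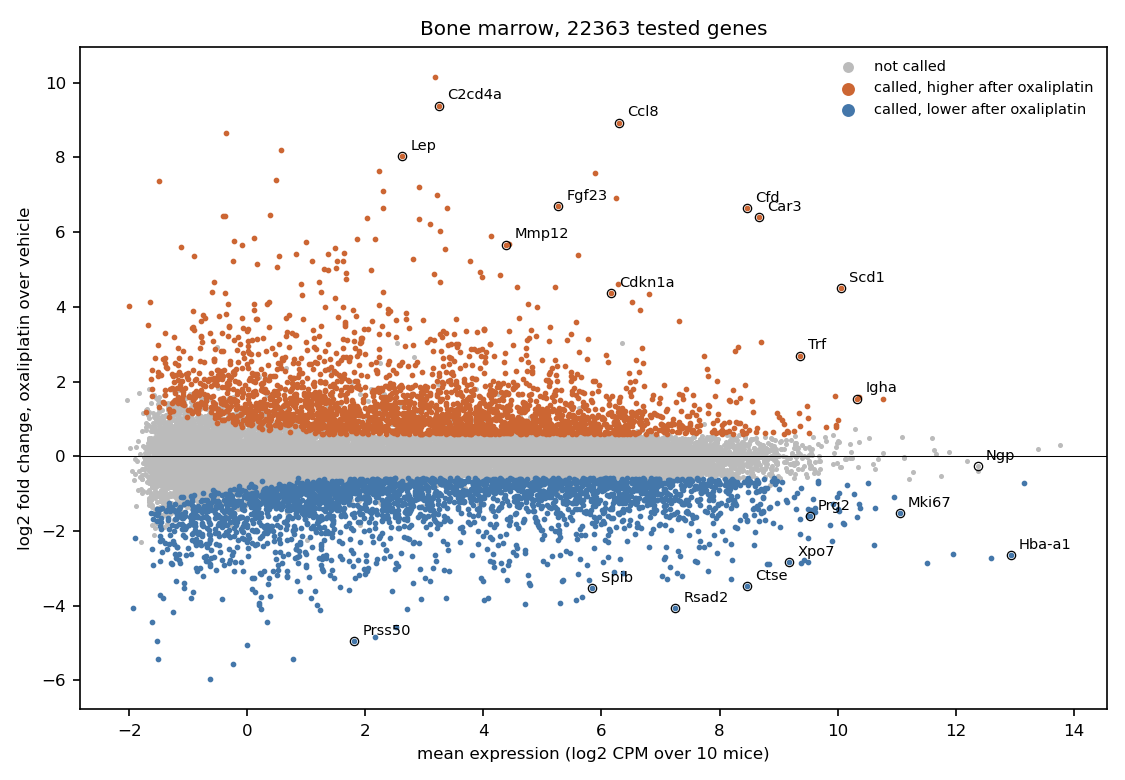
Log2 fold change (oxaliplatin over vehicle) against mean log2 CPM over the 10 mice for the 22363 tested genes, with called genes in orange (2589 higher) and blue (2632 lower) and the rest in grey. Rises reach further from 0 than falls: 26 genes rose beyond 64-fold and 0 fell as far.

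After every library was thinned to 30660153 counts, no difference was shown in the number of genes with at least 1 count, at 29882 ± 447 genes in vehicle mice and 30192 ± 937 in oxaliplatin mice (SD, n = 5 each, two-sided exact permutation p = 0.548). The 100 genes with the most counts took 20.4% ± 0.634 of the counts in vehicle mice and 17.8% ± 1.05 in oxaliplatin mice (n = 5 each, two-sided exact permutation p = 0.00794, the smallest that divisions of 10 mice into 5 and 5 allow). That fall went with the hemoglobin genes, which took 2.39% to 3.94% of the counts in vehicle mice and 0.282% to 0.919% in oxaliplatin mice. Without them the shares were 18.1% ± 0.209 and 17.6% ± 0.954 (n = 5 each, exact permutation p = 0.373). The classes of genes moved unequally. Protein-coding genes rose more often than they fell (2314 higher and 1656 lower of 14912), while long noncoding genes (108 higher and 433 lower of 2583) and small RNA genes (4 higher and 70 lower of 432) fell more often than they rose.

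Fat cell genes were among the largest rises. Of 28 tested genes of an adipocyte list, 23 rose and 0 fell, against 11.6% higher and 11.8% lower over all tested genes. Their median log2 fold change was 2.99 against -0.04 over all tested genes, and 24 of the 28 did not overlap between the groups. Cfd encodes adipsin, a complement protease secreted by fat cells. It was at 7.60, 7.22, 3.62, 12.7 and 3.77 CPM in vehicle mice 1 to 5 and at 1106, 309, 980.3, 992 and 124 CPM in oxaliplatin mice 1 to 5. Every oxaliplatin mouse was above every vehicle mouse, with mice 2 and 5 the lowest of their group, and the log2 fold change was 6.65 ± 0.71 (SE, adjusted p = 4.14e-05). Cidec, which encodes a coat protein of lipid droplets, was at 0.570, 0.553, 0.252, 1.23 and 0.422 CPM in vehicle mice and at 163, 85.2, 154, 156 and 29.6 CPM in oxaliplatin mice. It rose by 7.58 ± 0.58 on the log2 scale (adjusted p = 3.18e-06), again without overlap. Plin1, which encodes perilipin 1 of the same droplets, rose from between 0.158 and 2.19 CPM to between 21.6 and 283 CPM (log2 fold change 6.92 ± 0.82, adjusted p = 9.96e-05), with oxaliplatin mouse 5 the lowest of its group.

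Other fat cell genes differed widely in the size of their rise. Lpl encodes lipoprotein lipase, which releases fatty acids from blood lipids. Its level was 108, 88.0, 80.8, 101.2 and 70.9 CPM in vehicle mice and 967, 643, 656, 1005 and 428 CPM in oxaliplatin mice, a log2 fold change of 3.04 ± 0.23 (adjusted p = 8.80e-07). Adipoq, the gene of the hormone adiponectin, was at 14.5 to 34.5 CPM in vehicle mice and at 74.8 to 243 CPM in oxaliplatin mice (log2 fold change 2.89 ± 0.36, adjusted p = 8.61e-05). Scd1, which encodes the enzyme that puts a double bond into saturated fatty acids, reached 1574, 549.6, 4335, 3440.0 and 284 CPM in oxaliplatin mice 1 to 5 from 74.5 to 126 CPM in vehicle mice. These 3 genes did not overlap between the groups, and Scd1 differed most among the oxaliplatin mice (log2 fold change 4.51 ± 0.70, adjusted p = 0.000535). Car3, the gene of a carbonic anhydrase of fat and muscle, rose from between 5.48 and 14.2 CPM to between 164 and 1150.0 CPM (log2 fold change 6.41 ± 0.53, adjusted p = 5.68e-06). Pparg, the gene of the regulator that drives fat cell formation, rose by 0.90 ± 0.15 on the log2 scale (adjusted p = 0.000442) from between 24.3 and 31.6 CPM to between 33.3 and 59.9 CPM, a smaller change than that of most of the other list members. The summed level of the 30 genes named in the list was 1249, 1308, 1193, 1461 and 1157 CPM in vehicle mice 1 to 5 and 8062, 4426, 10575, 10297 and 2582 CPM in oxaliplatin mice 1 to 5, so every oxaliplatin mouse was above every vehicle mouse and mouse 5 was closest to vehicle.

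Markers of tissues that lie outside the marrow cavity were measured beside these genes. Of 16 tested skeletal muscle genes, 13 were called higher, but all 16 overlapped between the groups. Their summed level was 86.8, 46.0, 363, 44.7 and 242 CPM in vehicle mice 1 to 5 and 853, 862, 2127, 153 and 979 CPM in oxaliplatin mice 1 to 5. Without oxaliplatin mouse 3, 4 of these genes were called, and the count was 5 without vehicle mouse 1, 7 without oxaliplatin mouse 1 8 without oxaliplatin mouse 5 or vehicle mouse 2 and 3 without oxaliplatin mice 2 and 3 together. Oxaliplatin mouse 4 had the lowest sum of its group for muscle genes and the second highest for fat cell genes. Of 10 genes of brown fat, 6 were tested and 4 rose. Ucp1, which defines brown fat, and Cidea, which the adipocyte list also holds, had too few counts to be tested. Ucp1 had 2, 1, 0, 0 and 0 counts in vehicle mice and 0, 0, 0, 0 and 2 in oxaliplatin mice. Cidea had 2, 1, 0, 0 and 1 counts in vehicle mice and 33, 10, 10, 16 and 4 in oxaliplatin mice, without overlap. The summed level of the 10 genes was 14.3 to 17.3 CPM in vehicle mice and 19.5 to 34.4 CPM in oxaliplatin mice. The part of adjacent tissue in the fat cell genes was not tested.

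**Figure D2:**
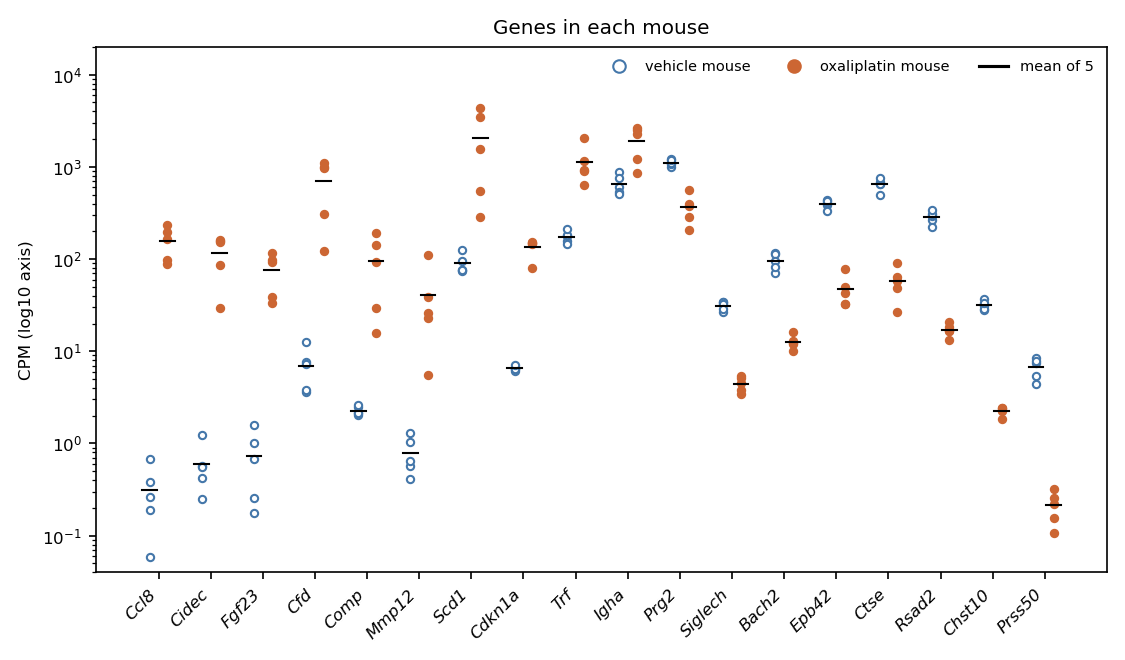
CPM (log10 axis) of 18 genes in each of the 10 mice, with vehicle mice as open blue circles, oxaliplatin mice as filled orange circles and the mean of 5 as a bar. The groups were apart for each gene shown except Igha, for which the lowest oxaliplatin mouse lay below the highest vehicle mouse.

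Many stromal and vascular genes rose as well. Of 19 tested genes of marrow stroma and the stem cell niche, 10 rose and 0 fell. Kitl, the gene of stem cell factor, was at 54.6, 49.7, 41.8, 59.7 and 47.3 CPM in vehicle mice and at 149, 127, 93.7, 106 and 109 CPM in oxaliplatin mice. Each oxaliplatin value was above each vehicle value (log2 fold change 1.21 ± 0.13, adjusted p = 1.84e-05). Il7, which encodes the growth factor of B cell progenitors, rose from between 1.20 and 3.31 CPM to between 4.02 and 12.5 CPM (log2 fold change 1.87 ± 0.33, adjusted p = 0.000646). Angpt1, the gene of angiopoietin 1, rose by 0.94 ± 0.13 on the log2 scale (adjusted p = 8.26e-05). Lepr, the leptin receptor that marks marrow stromal cells, was at 62.7 to 91.4 CPM in vehicle mice and at 44.2 to 70.6 CPM in oxaliplatin mice and was not called (log2 fold change -0.49 ± 0.13).

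Of 24 tested endothelial genes, 14 rose and 1 fell. Cdh5, the gene of the junction protein VE-cadherin, was at 44.5 to 58.5 CPM in vehicle mice and at 65.9 to 191 CPM in oxaliplatin mice (log2 fold change 1.10 ± 0.24, adjusted p = 0.00372). Stab1, a scavenger receptor of sinusoidal endothelium and of macrophages, rose from between 66.2 and 91.8 CPM to between 144 and 390.2 CPM (log2 fold change 1.63 ± 0.28, adjusted p = 0.000737). The single endothelial gene that fell was Sele, which encodes E-selectin, an adhesion molecule for leukocytes. Its level was 18.5, 17.8, 19.5, 17.8 and 22.6 CPM in vehicle mice and 7.37, 4.51, 2.03, 3.61 and 7.90 CPM in oxaliplatin mice, and it fell by 1.92 ± 0.30 on the log2 scale without overlap (adjusted p = 0.000314). Some pericyte and smooth muscle genes rose, with 5 of 12 tested genes higher and 0 lower. Mcam, which encodes a surface molecule of pericytes and endothelium, rose by 1.92 ± 0.31 (log2 scale, adjusted p = 0.000489).

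Genes of the extracellular matrix and of the enzymes that cut it formed another group of rises. Of 19 tested fibroblast and collagen genes, 12 rose and 2 fell. Col4a1, which encodes a collagen of basement membranes, was at 78.8, 65.6, 83.2, 82.7 and 71.7 CPM in vehicle mice and at 653, 328, 368, 951 and 389 CPM in oxaliplatin mice. All oxaliplatin mice were above all vehicle mice (log2 fold change 2.81 ± 0.28, adjusted p = 1.11e-05). Col18a1, another basement membrane collagen, rose from between 4.25 and 7.59 CPM to between 30.2 and 95.4 CPM (log2 fold change 3.23 ± 0.30, adjusted p = 8.77e-06), and the fibrillar collagen gene Col3a1 by 1.55 ± 0.33 (log2 scale, adjusted p = 0.00366). Col1a1, the main collagen gene of bone, was at 218 to 559 CPM in vehicle mice and at 161 to 607 CPM in oxaliplatin mice and was not called (log2 fold change 0.08 ± 0.38, adjusted p = 0.898). Col14a1, which encodes a collagen on the surface of fibrils, went the other way and fell by 3.35 ± 0.28 on the log2 scale (adjusted p = 1.91e-06), from between 11.05 and 23.6 CPM to between 0.979 and 2.40 CPM.

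Of 21 tested matrix enzymes and their inhibitors, 16 rose and 0 fell. Mmp2, the gene of a gelatinase, was at 4.53, 4.34, 7.12, 5.56 and 6.17 CPM in vehicle mice and at 34.05, 23.7, 63.2, 93.3 and 25.0 CPM in oxaliplatin mice, without overlap (log2 fold change 3.11 ± 0.39, adjusted p = 0.000102). Timp4, which encodes an inhibitor of such enzymes, rose from between 0.693 and 1.57 CPM to between 9.32 and 62.0 CPM (log2 fold change 4.80 ± 0.59, adjusted p = 8.71e-05). Mmp12, which encodes the elastase of macrophages, was at 1.04, 0.407, 0.567, 1.31 and 0.650 CPM in vehicle mice and at 22.8, 25.9, 38.7, 111 and 5.50 CPM in oxaliplatin mice. Oxaliplatin mouse 4 was the highest for Mmp12, and the log2 fold change was 5.67 ± 0.79 with it and 4.86 without it (adjusted p = 0.000277 with it). Comp, the gene of cartilage oligomeric matrix protein, rose from 2.04 to 2.58 CPM to 92.2, 29.8, 144, 194 and 15.8 CPM in oxaliplatin mice 1 to 5 (log2 fold change 5.39 ± 0.69, adjusted p = 0.000163), although the cartilage list as a whole had 2 of 7 tested genes higher. TGF-beta family genes, which include regulators of matrix and bone, had 14 of 24 tested genes higher and 0 lower. The largest of these rises were those of Nog, the gene of the BMP antagonist noggin (log2 fold change 3.47 ± 0.49, adjusted p = 0.000136), and Inhbb, the gene of an activin subunit (log2 fold change 2.64 ± 0.25, adjusted p = 6.18e-06).

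Bone cell genes were divided. Fgf23 encodes a hormone of bone that makes the kidney excrete phosphate, and lies at chr6:127072902-127081408 (GRCm38). It was at 0.253, 0.175, 1.58, 0.684 and 1.01 CPM in vehicle mice 1 to 5 and at 94.1, 116, 33.6, 39.1 and 98.96 CPM in oxaliplatin mice 1 to 5. No oxaliplatin mouse came near the vehicle range, and the log2 fold change was 6.70 ± 0.59 (adjusted p = 8.03e-06). Other osteoblast and osteocyte genes moved in either direction. Ibsp, which encodes bone sialoprotein, fell from between 59.8 and 120.1 CPM to between 12.5 and 33.4 CPM (log2 fold change -1.86 ± 0.27, adjusted p = 0.00022). Of the 17 tested genes of the list 3 rose and 4 fell, 2 of the 4 with library size alone. Over all tested genes 11.6% were higher and 11.8% lower. The osteocyte genes Sost and Mepe had too few counts to be tested, and Dmp1, which also marks osteocytes, was at 0.727 to 2.71 CPM in vehicle mice and at 0.728 to 4.31 CPM in oxaliplatin mice (log2 fold change 0.36 ± 0.48, adjusted p = 0.611). Of 12 tested genes of osteoclasts, the cells that resorb bone, 7 rose and 1 fell. Atp6v0d2, which encodes a subunit of their proton pump, was at 36.7, 35.3, 30.9, 38.02 and 37.0 CPM in vehicle mice and at 96.8, 158, 99.1, 84.1 and 106 CPM in oxaliplatin mice, without overlap (log2 fold change 1.61 ± 0.15, adjusted p = 4.97e-06). Dcstamp, needed for the fusion of their precursors, rose by 2.09 ± 0.41 on the log2 scale (adjusted p = 0.00162). The osteoclast list member that fell was Car2, which the early erythroid list also holds. Among the rises was Itgb3, which the megakaryocyte list also holds.

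**Figure D3:**
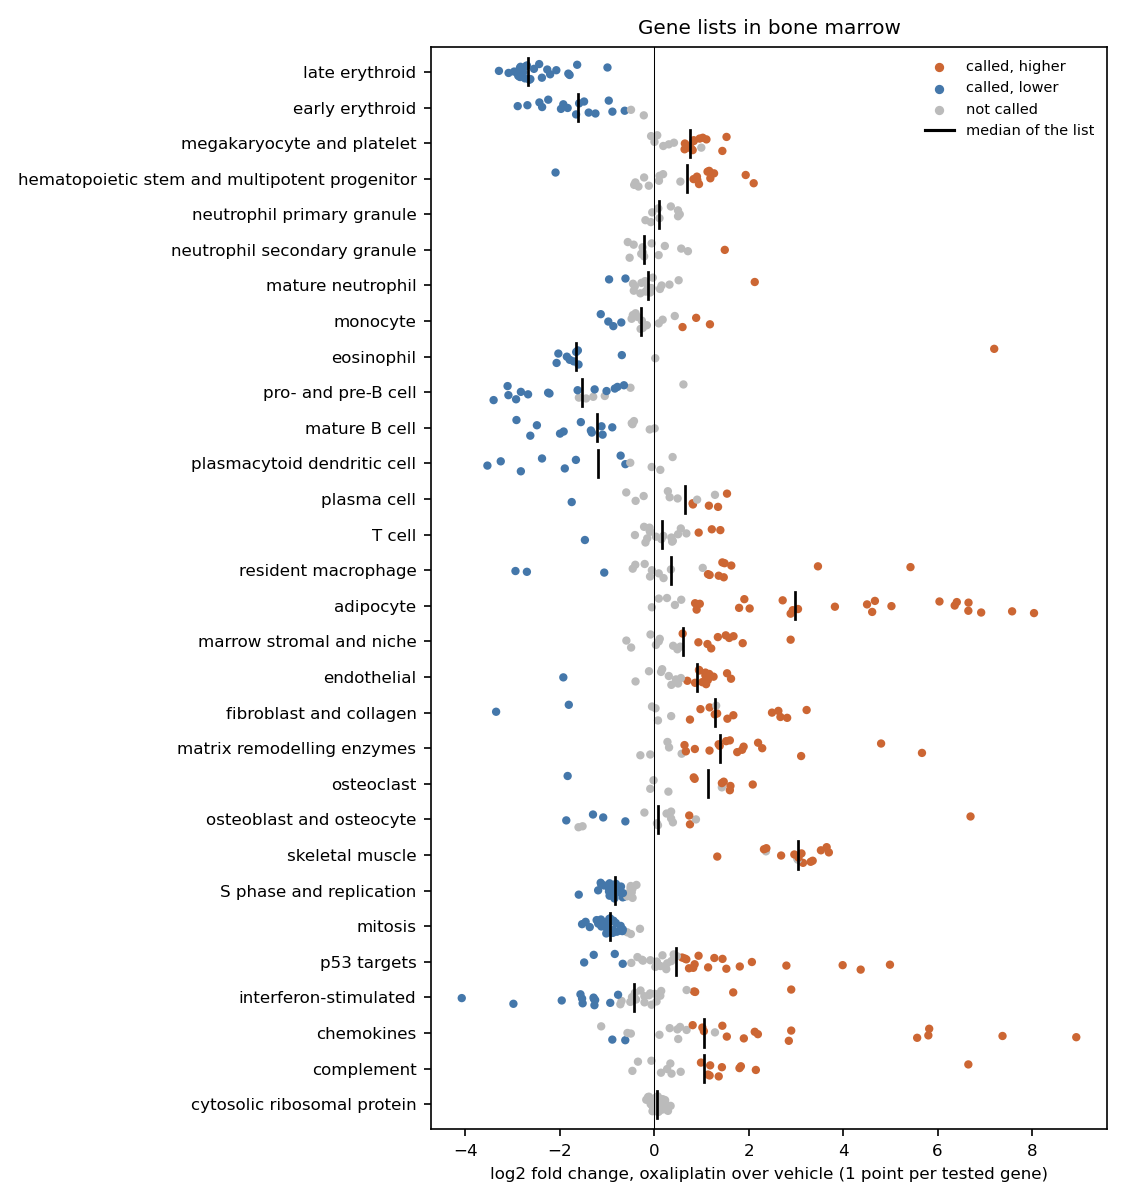
Log2 fold change (oxaliplatin over vehicle) of each tested gene of 30 lists, 1 point per gene, with called rises in orange, called falls in blue, other genes in grey and the median of a list as a black bar. All 24 late erythroid genes lie left of 0 and 23 of 28 adipocyte genes are called right of it, while the ribosomal protein list sits around 0.06 with 0 calls.

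Of all the lists, red cell genes had the steepest fall. All 24 tested late erythroid genes fell, with a median log2 fold change of -2.67, and 16 of 18 early erythroid genes fell, with a median of -1.62. Neither list had a rise. GATA1 switches on many red cell genes through sites with the letters AGATAA, so the promoters of a pair of late erythroid genes are printed with that motif. Each stretch is the 250 bases before the annotated start, 5′ to 3′ on the gene's strand, from RefSeq on GRCm38.p6, with the motif or its reverse complement in capitals. Epb42 is at chr2:121036878-121037127 on the minus strand and Rhd at chr4:134864286-134864535 on the plus strand.
Epb42: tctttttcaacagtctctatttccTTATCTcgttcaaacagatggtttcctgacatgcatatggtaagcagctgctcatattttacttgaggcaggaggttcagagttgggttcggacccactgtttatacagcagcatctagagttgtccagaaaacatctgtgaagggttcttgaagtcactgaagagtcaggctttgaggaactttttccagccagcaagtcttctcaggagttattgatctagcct
Rhd: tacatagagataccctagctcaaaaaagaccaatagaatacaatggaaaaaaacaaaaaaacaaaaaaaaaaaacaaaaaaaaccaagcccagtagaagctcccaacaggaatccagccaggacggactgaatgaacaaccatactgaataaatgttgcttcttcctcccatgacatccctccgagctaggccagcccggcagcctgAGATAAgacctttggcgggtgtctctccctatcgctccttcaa
The match began at base -226 in Epb42 and at base -43 in Rhd, counted back from the start. On either strand AGATAA was in 5 of the 15 late erythroid promoters in the table (33.3%), in 8.74% of the promoters of all tested genes and in 11.3% of those of genes called lower. Such a match is a description of the letters and not a mapped site.

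Both of these genes fell in every oxaliplatin mouse. Epb42 encodes a protein that ties the red cell membrane to its skeleton. It was at 385, 409, 440.4, 427 and 334 CPM in vehicle mice and at 32.5, 49.9, 78.4, 42.5 and 32.3 CPM in oxaliplatin mice, a log2 fold change of -3.08 ± 0.23 (adjusted p = 1.06e-06). Rhd, the gene of the Rh blood group protein, was at 231, 283, 266, 297 and 198 CPM in vehicle mice and at 17.9, 33.6, 53.9, 37.3 and 20.4 CPM in oxaliplatin mice. It fell by 2.96 ± 0.28 on the log2 scale (adjusted p = 9.25e-06), and for both genes every oxaliplatin mouse was below every vehicle mouse with mouse 3 the highest of its group. Bpgm, the gene of the enzyme that makes 2,3-bisphosphoglycerate, a regulator of oxygen release, had the steepest fall of the list, from between 370.1 and 689.9 CPM to between 23.5 and 83.7 CPM (log2 fold change -3.29 ± 0.35, adjusted p = 2.96e-05).

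Genes of earlier red cell stages fell less by the median of their list, though Aqp1 and Kel fell about as far as the late genes. Aqp1, which encodes a water channel, fell by 2.89 ± 0.25 and Kel, which encodes the Kell blood group protein, by 2.68 ± 0.15 (log2 scale, adjusted p = 3.19e-06 and 1.26e-07). Klf1, the gene of an erythroid transcription factor, was at 257, 288, 321, 316 and 246 CPM in vehicle mice and at 34.3, 91.9, 178, 99.2 and 50.2 CPM in oxaliplatin mice. The groups did not overlap for Klf1, and oxaliplatin mouse 3 was the closest to vehicle (log2 fold change -1.65 ± 0.36, adjusted p = 0.00439). Gata1 itself was at 114 to 156 CPM in vehicle mice and at 88.5 to 191 CPM in oxaliplatin mice, with overlap, and was not called (log2 fold change -0.22 ± 0.19, adjusted p = 0.425). The summed level of the late list was 50183, 54769, 52822, 65145 and 38938 CPM in vehicle mice 1 to 5 and 9853, 12880.0, 8702, 5674 and 7533 CPM in oxaliplatin mice 1 to 5.

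The steepest falls outside these lists included genes with very little spread in either group. Chst10, which encodes a sulfotransferase that acts on glycans and lies at chr1:38863867-38898161, was at 31.1, 28.0, 36.5, 28.7 and 33.1 CPM in vehicle mice and at 1.84, 2.44, 2.42, 2.23 and 2.32 CPM in oxaliplatin mice. It had the smallest adjusted p of all tested genes (6.47e-09) at a log2 fold change of -3.80 ± 0.13. Xpo7, the gene of a nuclear export receptor, fell from 977, 1110.5, 1064, 1059 and 864 CPM to 163, 148, 146, 126 and 132 CPM (log2 fold change -2.83 ± 0.11, adjusted p = 1.30e-08). Gch1, which encodes the first enzyme of tetrahydrobiopterin synthesis, fell by 3.32 ± 0.13 on the log2 scale (adjusted p = 1.15e-08) from between 82.7 and 112 CPM to between 7.95 and 11.4 CPM. Ctse, the gene of cathepsin E, was at 659, 678, 651, 757 and 490.4 CPM in vehicle mice and at 26.7, 58.4, 91.2, 63.6 and 48.5 CPM in oxaliplatin mice. Prss50, a protease gene, was at 7.53, 8.53, 5.36, 7.84 and 4.39 CPM in vehicle mice and at 0.317, 0.157, 0.256, 0.223 and 0.108 CPM in oxaliplatin mice. These genes were low in every oxaliplatin mouse without overlap, with log2 fold changes of -3.49 ± 0.27 for Ctse (adjusted p = 1.90e-06) and -4.96 ± 0.31 for Prss50 (adjusted p = 2.62e-07). Slc30a10, which encodes a manganese exporter, fell by 4.08 ± 0.33 (adjusted p = 1.57e-06), Fn3k, which encodes a kinase that repairs glycated proteins, by 3.93 ± 0.34 (adjusted p = 6.18e-06), and Tfdp2, which encodes a partner of E2F factors, by 2.58 ± 0.11 on the log2 scale (adjusted p = 1.93e-08).

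Iron handling genes moved in both directions. Of 18 tested genes 4 were higher and 5 lower, against 11.6% higher and 11.8% lower over all tested genes. With library size alone 7 rose, and the median of the list, -0.15 under TMM, was 0.0015 with library size alone. Trf encodes transferrin, the carrier of iron in plasma. It was at 158, 179, 180.3, 214 and 147 CPM in vehicle mice and at 2071, 1159.5, 637, 925 and 896 CPM in oxaliplatin mice, without overlap and with oxaliplatin mouse 1 the highest (log2 fold change 2.70 ± 0.28, adjusted p = 1.27e-05). Erfe, the gene of erythroferrone, a hormone that erythroblasts release under erythropoietin to raise iron supply, was at 4.75, 3.55, 7.499, 3.93 and 4.26 CPM in vehicle mice and at 15.1, 34.6, 36.8, 32.2 and 20.1 CPM in oxaliplatin mice. It rose by 2.53 ± 0.28 on the log2 scale (adjusted p = 2.01e-05) while the late erythroid genes fell. Slc25a37, which encodes the iron carrier of erythroid mitochondria, fell by 2.26 ± 0.15 (adjusted p = 2.95e-07), and Tfrc, the transferrin receptor, by 1.39 ± 0.19 on the log2 scale (adjusted p = 0.000109). Fth1, the gene of the ferritin heavy chain, was at 1004 to 1254 CPM in vehicle mice and at 782 to 1088 CPM in oxaliplatin mice and was not called (adjusted p = 0.0665).

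Most genes of B cells and their progenitors fell. Of 20 tested genes of pro- and pre-B cells, 14 fell and 0 rose, and of 16 tested mature B cell genes, 11 fell and 0 rose. Bach2, the gene of a transcription factor that holds B cells back from plasma cell fate, was at 117, 114, 69.8, 95.2 and 81.8 CPM in vehicle mice and at 12.4, 10.0, 12.0, 16.001 and 12.9 CPM in oxaliplatin mice. Every oxaliplatin mouse was far below the vehicle mice (log2 fold change -2.91 ± 0.17, adjusted p = 1.21e-07). Cecr2, which encodes a chromatin remodelling factor and was listed with the pro-B genes, fell from between 98.97 and 161 CPM to between 10.5 and 22.1 CPM (log2 fold change -3.10 ± 0.25, adjusted p = 2.52e-06). Fcmr, the gene of the IgM Fc receptor, fell by 2.48 ± 0.30 on the log2 scale (adjusted p = 5.06e-05). Genes of the recombination stage differed among the oxaliplatin mice. Rag2, one of the pair of recombinase genes, was at 4.97, 4.31, 2.84, 5.04 and 3.64 CPM in vehicle mice and at 0.0576, 0, 1.58, 0.935 and 0.0539 CPM in oxaliplatin mice, and Igll1, the surrogate light chain gene, at 13.7, 17.5, 6.21, 17.6 and 8.45 CPM in vehicle mice and at 0.0576, 0.157, 11.6, 8.46 and 0.485 CPM in oxaliplatin mice. Oxaliplatin mice 3 and 4 kept the highest levels of both genes in their group, and Igll1 overlapped and was not called (adjusted p = 0.277). Without those 2 mice the log2 fold change of Igll1 was -5.71 (adjusted p = 0.000141), and the median of the pro- and pre-B list moved from -1.52 to -2.49. Rag2 fell by 2.92 ± 0.83 on the log2 scale (adjusted p = 0.0181), and its adjusted p was 0.0739 without the filter on low counts.

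Some plasma cell genes rose. Of 14 tested genes of the list, 5 rose and 1 fell. Igha, the constant region of IgA, was at 608, 875, 528, 505 and 765 CPM in vehicle mice and at 2302, 2647, 858, 2534 and 1214 CPM in oxaliplatin mice. It rose by 1.54 ± 0.30 on the log2 scale (adjusted p = 0.00162), although oxaliplatin mouse 3 lay below vehicle mouse 2. Ighm, the constant region of IgM, which B cells also carry, fell from between 443 and 706 CPM to between 191 and 292 CPM (log2 fold change -1.34 ± 0.16, adjusted p = 4.09e-05). Jchain, which encodes the chain that joins IgA and IgM molecules, was at 120.2, 162, 107, 105 and 145 CPM in vehicle mice and at 371, 444, 199.9, 426 and 191 CPM in oxaliplatin mice, without overlap (log2 fold change 1.35 ± 0.25, adjusted p = 0.00108). Sdc1, the gene of the plasma cell marker syndecan 1, and Prdm1, the gene of the regulator of plasma cell fate, rose by 1.16 ± 0.17 and 0.81 ± 0.17 on the log2 scale (adjusted p = 0.000163 and 0.00242). Immunoglobulin segments took 0.243% to 0.351% of the counts in vehicle mice and 0.365% to 0.767% in oxaliplatin mice. Of 194 tested segments, 32 rose (16.5%) and 6 fell (3.09%), against 11.6% higher and 11.8% lower over all tested genes. These segments are near-identical copies, so the division of reads among them is uncertain.

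Plasmacytoid dendritic cell genes fell, with 8 of 12 tested genes lower and 0 higher. Siglech, the gene of their surface lectin, was at 26.9, 34.5, 34.2, 32.2 and 28.9 CPM in vehicle mice and at 5.13, 5.36, 3.47, 3.78 and 4.47 CPM in oxaliplatin mice (log2 fold change -2.82 ± 0.14, adjusted p = 5.58e-08). Spib, a transcription factor gene of these cells and of B cells, fell from between 72.2 and 131 CPM to between 7.17 and 10.3 CPM, the steepest fall of the list (log2 fold change -3.53 ± 0.18, adjusted p = 4.88e-08). Of 20 tested T cell genes, 3 rose (6 without oxaliplatin mouse 3 and 2 without mouse 4) and 1 fell, a share near the 23.3% called over all tested genes, and their summed level was 182 to 237 CPM in vehicle mice and 194 to 239 CPM in oxaliplatin mice. Cd3e, a chain of the T cell receptor complex, was at 3.91 to 5.82 CPM in vehicle mice and at 4.06 to 8.55 CPM in oxaliplatin mice and was not called (adjusted p = 0.173). The T cell gene that fell was Cd4, which dendritic cells and macrophages also express, from 66.7, 73.7, 98.7, 89.8 and 64.3 CPM to 26.2, 36.6, 23.1, 34.1 and 22.5 CPM (log2 fold change -1.47 ± 0.17, adjusted p = 2.21e-05). Among 15 tested genes of NK and cytotoxic cells, 5 fell and 1 rose, against 11.8% lower and 11.6% higher over all tested genes.

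Among granulocytes, most eosinophil genes fell. Of 11 tested eosinophil genes, 9 fell, with a median of -1.65. Prg2, which encodes major basic protein, was at 986, 1072, 1090.2, 1208 and 1188 CPM in vehicle mice and at 377, 559.9, 206, 397 and 288 CPM in oxaliplatin mice. Each oxaliplatin mouse was below each vehicle mouse and mouse 3 was the lowest (log2 fold change -1.60 ± 0.21, adjusted p = 8.35e-05). Epx, the gene of eosinophil peroxidase, fell by 1.70 ± 0.20 (adjusted p = 3.07e-05), and Ccr3, the gene of the eotaxin receptor, by 2.03 ± 0.18 on the log2 scale (adjusted p = 3.80e-06). The single list member that rose was Rnase2a, a gene of the eosinophil-associated ribonuclease family, which macrophages also use. It had 2, 6, 3, 3 and 2 counts in vehicle mice 1 to 5 and 711, 999, 47, 157 and 666 counts in oxaliplatin mice 1 to 5. In CPM it was at 0.0633 to 0.175 CPM in vehicle mice and at 20.5, 31.3, 1.10, 3.49 and 18.0 CPM in oxaliplatin mice (fitted log2 fold change 7.20 ± 0.99, adjusted p = 0.000204). The members of that family are similar in sequence, so its count is uncertain. Ear2, of the same family, was at 137 to 164 CPM in vehicle mice and at 71.4 to 248 CPM in oxaliplatin mice and was not called.

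Basophil and mast cell genes moved in both directions. Over all tested genes 11.6% were higher and 11.8% lower. Prss34, a protease gene of basophils, was at 69.9, 92.4, 76.5, 85.9 and 81.9 CPM in vehicle mice and at 14.8, 8.59, 15.7, 45.3 and 9.46 CPM in oxaliplatin mice. It fell by 2.11 ± 0.41 on the log2 scale (adjusted p = 0.0021), or by 2.74 without oxaliplatin mouse 4, the highest of its group. Of 10 tested basophil genes, 5 fell and 2 rose, and 2 fell in a fit that also held the mean log2 CPM of the Y-linked genes. The 5 that fell were Prss34, Mcpt8, Cd200r3, Ms4a2 and Ccl3. The 2 that rose were Itga2b, which the megakaryocyte list also holds, and Il6, with means of 0.474 CPM in vehicle mice and 1.53 CPM in oxaliplatin mice. Of the 14 genes of a mast cell list 11 were tested, 3 rose and 3 fell, with a median log2 fold change of -0.33 (0.17 with the Y-linked covariate) and a summed level of 275 to 317 CPM in vehicle mice and 203 to 278 CPM in oxaliplatin mice. With counts halved 9 were tested and 1 rose. The 3 that rose, proteases of the mast cells of connective tissue, were near 0 in vehicle mice. Tpsb2, a tryptase gene, had 0, 0, 0, 0 and 1 counts in vehicle mice 1 to 5 and 316, 84, 35, 34 and 38 counts in oxaliplatin mice 1 to 5. Cma1, a chymase gene, had 0, 0, 2, 0 and 0 counts and 260, 60, 20, 99 and 45 counts, and Mcpt4, another chymase gene, had 0, 2, 2, 0 and 0 counts and 262, 51, 20, 98 and 20 counts. Oxaliplatin mouse 1 had the most counts of all 3 genes. The fitted log2 fold changes against so few counts depended on single libraries. That of Tpsb2 was 8.21 with all mice, 7.08 without oxaliplatin mouse 1 and 9.68 without vehicle mouse 5. That of Cma1 was 7.39 with all mice, 6.52 without oxaliplatin mouse 1 and 9.57 without vehicle mouse 3, and that of Mcpt4 was 6.46, 5.43 without oxaliplatin mouse 1 and 7.05 without vehicle mouse 3. Cpa3, a protease gene of both cell types, was at 9.96 to 15.2 CPM in vehicle mice and at 7.52 to 19.3 CPM in oxaliplatin mice and was not called (adjusted p = 0.923).

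edgeR called 0 of 9 neutrophil primary granule genes, of which 4 had an unadjusted p under 0.05 and DESeq2 called 1 as higher. Ctsg, Ms4a3 and Gstm1 had an adjusted p under 0.05 but missed the fold threshold (log2 fold changes 0.51, 0.54 and 0.50). With library size alone, with the Y-linked covariate or without oxaliplatin mouse 5 the count was 3, all higher. Of the other lists, 1 of 13 secondary granule genes and 3 of 19 mature neutrophil genes were called, against 23.3% over all tested genes. The secondary granule list had 5 falls with the Y-linked covariate and 4 rises without oxaliplatin mice 3 and 4, and the mature list 4 falls and 4 rises in the same fits. The oxaliplatin mice differed among themselves. Ltf, which encodes lactoferrin of the secondary granules, was at 3534, 4104, 4156, 4289.9 and 4239 CPM in vehicle mice and at 3890.2, 2934, 842, 1713 and 4799.6 CPM in oxaliplatin mice. S100a8, a calcium-binding protein of mature neutrophils, was at 1922, 2379, 2172, 2545 and 2331 CPM in vehicle mice and at 2702, 2816, 1135, 1164 and 3102 CPM in oxaliplatin mice. Oxaliplatin mice 3 and 4 were below every vehicle mouse for both genes, while mouse 5 was above every vehicle mouse. The summed level of the secondary granule list was 16658, 19368, 19023, 20353 and 19888 CPM in vehicle mice 1 to 5 and 21731, 19498, 6169, 9202 and 25712 CPM in oxaliplatin mice 1 to 5. The sum of the primary granule genes, which promyelocytes make, was 3474, 3553, 3873, 4121 and 3816 CPM in vehicle mice and 3480.4, 3261, 5351, 4293 and 3352 CPM in oxaliplatin mice, with mice 3 and 4 above every vehicle mouse. With oxaliplatin mice 3 and 4 left out, a choice made after seeing the data, 5130 genes were called in place of 5221, and 4306 of the calls were shared. Without oxaliplatin mice 2 and 3, the pair with a low mitochondrial share, the count was 5078, with 4363 shared.

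**Figure D4:**
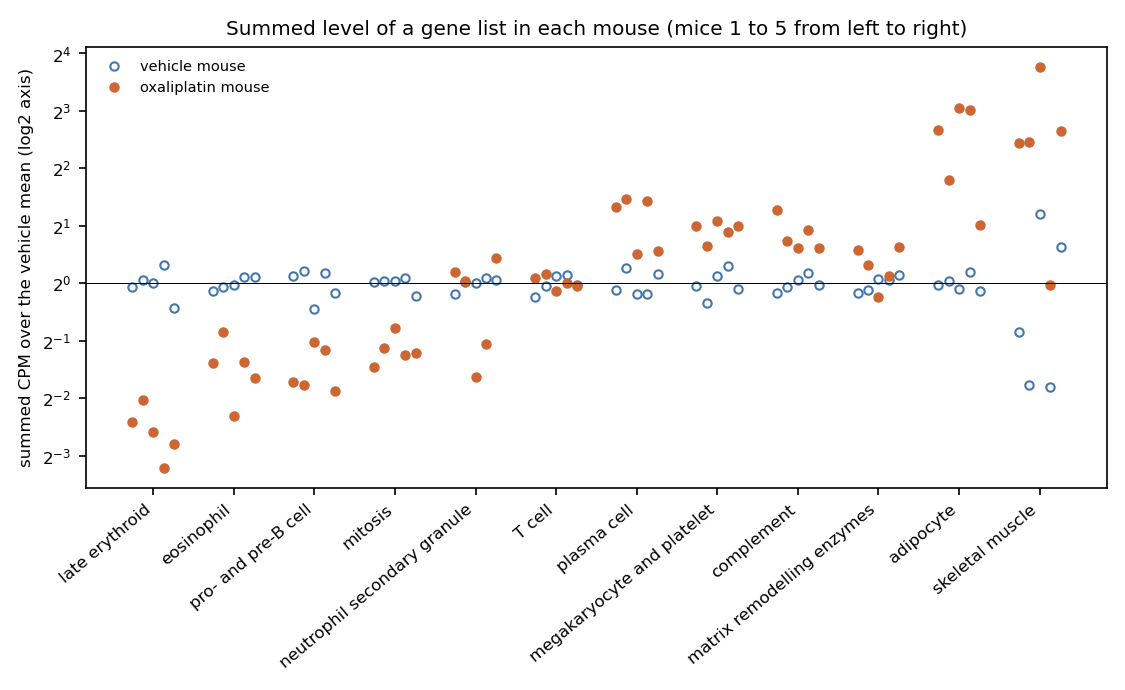
Summed CPM of the genes of 12 lists in each mouse, divided by the vehicle mean (log2 axis), with mice 1 to 5 from left to right in each list, vehicle mice as open blue circles and oxaliplatin mice as filled orange circles. Late erythroid, eosinophil, pre-B and mitosis sums were below the vehicle range in all 5 oxaliplatin mice, the adipocyte, complement, plasma cell and megakaryocyte sums above it, and the secondary granule sum was low in oxaliplatin mice 3 and 4.

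Monocyte and macrophage genes moved in both directions. Of 18 tested monocyte genes, 3 rose and 4 fell, against 11.6% higher and 11.8% lower over all tested genes. F13a1, which encodes the clotting factor XIII A chain of monocytes and platelets, rose from between 187 and 278 CPM to between 319 and 769.6 CPM (log2 fold change 1.18 ± 0.20, adjusted p = 0.000466), and Treml4, a receptor gene of patrolling monocytes, fell by 1.13 ± 0.23 on the log2 scale (adjusted p = 0.00185). Of 21 tested resident macrophage genes, 9 rose and 3 fell. Siglec1, the gene of sialoadhesin, was at 93.7, 86.4, 88.6, 107 and 83.5 CPM in vehicle mice and at 408, 322, 129, 345 and 219 CPM in oxaliplatin mice, without overlap (log2 fold change 1.63 ± 0.25, adjusted p = 0.000297). Cbr2, which encodes a carbonyl reductase of tissue macrophages, was at 6.46, 6.26, 4.54, 7.01 and 4.58 CPM in vehicle mice and at 118, 72.9, 38.3, 59.6 and 30.8 CPM in oxaliplatin mice. It rose by 3.47 ± 0.35 (log2 scale, adjusted p = 1.87e-05). The genes that fell were Spic, the regulator of the macrophages that clear red cells, by 1.06 ± 0.16 (adjusted p = 0.000221), Timd4, which encodes a receptor for dying cells, by 2.94 ± 0.48 on the log2 scale (adjusted p = 0.00043), and 1 other. Vcam1, which marks the macrophages of erythroblast islands and also stroma, was at 339 to 458 CPM in vehicle mice and at 248 to 546 CPM in oxaliplatin mice and was not called (adjusted p = 0.727).

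Most of the platelet lineage genes rose, as did several stem cell genes. Of 20 tested megakaryocyte genes, 13 rose and 0 fell. Thbs1, the gene of thrombospondin 1, a granule protein of platelets, was at 809.6, 648, 1008, 1109 and 888 CPM in vehicle mice and at 2948, 1955, 2292, 2759.6 and 2948 CPM in oxaliplatin mice. All oxaliplatin mice were above all vehicle mice (log2 fold change 1.53 ± 0.17, adjusted p = 1.84e-05). Of 20 tested stem and progenitor genes, 10 rose and 1 fell, while their summed level was 394 to 463 CPM in vehicle mice and 414 to 499.6 CPM in oxaliplatin mice. Mycn, a growth regulator of stem and progenitor cells, rose from between 3.77 and 5.93 CPM to between 10.0 and 21.1 CPM (log2 fold change 1.94 ± 0.22, adjusted p = 1.96e-05), and Slamf1, the gene of the stem cell marker CD150, by 0.91 ± 0.12 (log2 scale, adjusted p = 7.65e-05). Kit, the receptor for stem cell factor, was at 84.2 to 108 CPM in vehicle mice and at 63.7 to 88.1 CPM in oxaliplatin mice and was not called (log2 fold change -0.33 ± 0.11). Pdzk1ip1, whose promoter is active in stem cells and which red cell precursors also express, fell by 2.09 ± 0.19 on the log2 scale (adjusted p = 4.49e-06).

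Genes of cell division mostly fell. Of 28 tested mitosis genes, 25 fell and 0 rose (median -0.94), and of 30 S phase genes, 22 fell and 0 rose (median -0.82). Many mitosis genes are held down outside of division through a promoter element, the cell-cycle gene homology region, with the letters TTTGAA or TTCGAA. The promoters of Mki67 (chr7:135716380-135716629, minus strand) and Prc1 (chr7:80294226-80294475, plus strand) are shown with that element in capitals, again as 250 bases from RefSeq on GRCm38.p6.
Mki67: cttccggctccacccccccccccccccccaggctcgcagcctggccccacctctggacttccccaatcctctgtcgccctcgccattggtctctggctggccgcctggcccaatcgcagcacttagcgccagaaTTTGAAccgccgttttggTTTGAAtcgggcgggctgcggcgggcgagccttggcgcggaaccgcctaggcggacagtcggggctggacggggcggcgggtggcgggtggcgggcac
Prc1: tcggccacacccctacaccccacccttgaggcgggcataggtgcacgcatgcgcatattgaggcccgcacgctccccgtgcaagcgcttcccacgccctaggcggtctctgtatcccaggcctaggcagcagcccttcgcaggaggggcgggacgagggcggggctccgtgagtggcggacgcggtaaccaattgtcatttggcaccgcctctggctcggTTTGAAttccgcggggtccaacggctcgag
The element began at bases -116 and -98 in Mki67 and at base -30 in Prc1. On either strand it was in 19 of the 23 mitosis promoters in the table (82.6%), against 17.4% of the promoters of all tested genes and 22.9% of those of genes called lower. An E2F site, TTTCCCGC or TTTGGCGC, was in 8 of 25 S phase promoters (32%) against 3.05% of the promoters of all tested genes.

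Mki67 encodes the proliferation marker Ki-67. It was at 3259.8, 3232, 3296, 3273 and 2719 CPM in vehicle mice and at 899, 1129.8, 1306, 1029 and 1115 CPM in oxaliplatin mice, a log2 fold change of -1.53 ± 0.13 (adjusted p = 1.99e-06). Prc1, which encodes a crosslinker of spindle microtubules, was at 171, 167, 172, 167 and 142 CPM in vehicle mice and at 54.9, 70.0, 89.5, 69.9 and 67.9 CPM in oxaliplatin mice (log2 fold change -1.22 ± 0.12, adjusted p = 6.77e-06). The groups did not overlap for either gene, and oxaliplatin mouse 3 was the highest of its group for both. Among S phase genes Cdc6, which loads the replicative helicase, fell by 1.60 ± 0.25 (adjusted p = 0.000386) and Tk1, the gene of thymidine kinase 1, by 1.19 ± 0.12 on the log2 scale (adjusted p = 7.79e-06).

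Histone genes, whose messages are made in S phase, formed the 3 longest runs of neighbouring genes called in the same direction. On chromosome 13 (GRCm38), 20 neighbours from 21715763 to 21837530 fell with a median log2 fold change of -1.36, 20 from 23531050 to 23698454 with a median of -1.35, and 12 from 23738808 to 24280795 with a median of -1.42. The last run ends with Carmil1, which encodes a regulator of actin and not a histone and had the smallest change of the 12 (log2 fold change -0.59 ± 0.14). It fell short of the fold threshold without oxaliplatin mouse 2 or 5 or vehicle mouse 1 or 3, at -0.54, -0.49, -0.57 and -0.58. H1f2, which encodes a linker histone, was at 2223, 2487, 2159, 2678 and 1883 CPM in vehicle mice and at 766, 927, 1049, 799 and 853 CPM in oxaliplatin mice (log2 fold change -1.38 ± 0.13, adjusted p = 6.42e-06). H1f0, the linker histone of resting cells, lies on chromosome 15 and rose from between 27.7 and 43.4 CPM to between 60.8 and 85.2 CPM (log2 fold change 1.01 ± 0.13, adjusted p = 5.87e-05). Histone genes are near-identical in parts of their sequence, so reads may have been divided among them unevenly.

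**Figure D5:**
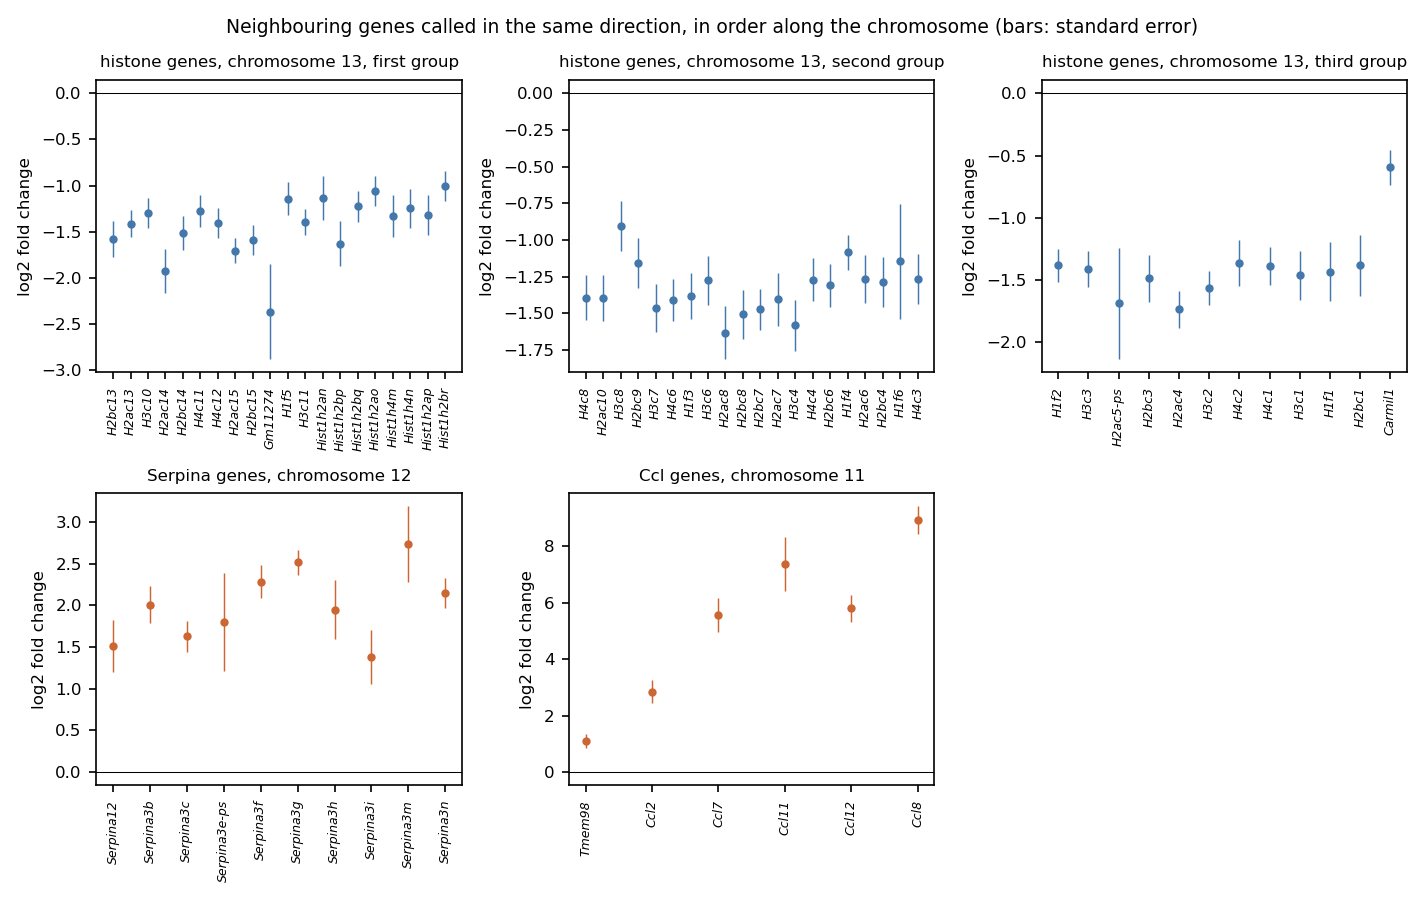
Log2 fold change (oxaliplatin over vehicle) with its standard error for the genes of 5 runs of neighbours called in the same direction, in their order along the chromosome. The histone genes of chromosome 13 lie near -1.4, the Serpina genes of chromosome 12 near 2 and the Ccl genes of chromosome 11 between 1.10 for Tmem98 and 8.93 for Ccl8, where the value of Ccl11 is no bound because its vehicle counts were all 0.

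Several DNA repair genes fell as well. Of 23 tested genes of crosslink repair, 12 fell and 0 rose. Brca1 was at 132, 133, 135, 129 and 109.9 CPM in vehicle mice and at 35.0, 54.5, 66.6, 51.7 and 47.9 CPM in oxaliplatin mice, without overlap (log2 fold change -1.32 ± 0.14, adjusted p = 1.50e-05), and Brca2 fell by 1.18 ± 0.12 (adjusted p = 8.93e-06). Both proteins act in repair by recombination. Targets of p53, the regulator that DNA damage switches on, mostly rose where they were called. Of 36 tested genes 17 were higher and 4 lower, against 11.6% higher and 11.8% lower over all tested genes. Eda2r, which encodes a death receptor of the TNF receptor family, was at 0.253, 0.116, 0.599, 0.171 and 0.130 CPM in vehicle mice and at 8.44, 8.05, 10.1, 9.90 and 4.10 CPM in oxaliplatin mice (log2 fold change 4.99 ± 0.42, adjusted p = 2.34e-06). Zmat3, which encodes an RNA-binding regulator of splicing, was at 10.4, 13.4, 12.5, 13.1 and 12.1 CPM in vehicle mice and at 91.1, 92.3, 94.5, 88.5 and 62.8 CPM in oxaliplatin mice (log2 fold change 2.80 ± 0.13, adjusted p = 2.65e-08). Phlda3, which encodes an inhibitor of AKT, rose from between 3.20 and 4.03 CPM to between 25.6 and 77.7 CPM (log2 fold change 3.99 ± 0.28, adjusted p = 8.26e-07). For these 3 genes, as for Cdkn1a (6.08 to 7.18 CPM in vehicle mice and 150.2, 146, 153, 151 and 79.2 CPM in oxaliplatin mice), oxaliplatin mouse 5 was the lowest of its group and still above every vehicle mouse. Btg2, an antiproliferative p53 target that erythroid and B cells also express, fell by 1.48 ± 0.12 (adjusted p = 2.07e-06), and Mdm2, the gene of the negative regulator of p53, was at 81.1 to 85.5 CPM in vehicle mice and at 86.6 to 111 CPM in oxaliplatin mice and did not pass the fold threshold (log2 fold change 0.26 ± 0.08). A list of senescence genes and secreted factors had 11 of 20 tested genes higher and 1 lower. Cdkn2a, the gene of the cell-cycle inhibitor p16, rose from 0.253, 0.291, 0.126, 0.0570 and 0.0650 CPM to 1.58, 1.41, 2.84, 1.60 and 1.11 CPM (log2 fold change 3.40 ± 0.45, adjusted p = 8.06e-05), a low level in both groups.

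Interferon-stimulated genes mostly fell where they were called. Of 34 tested genes of the list, 12 fell and 4 rose. Type I interferon acts on its targets through the interferon-stimulated response element, searched here with the letters GAAANNGAA, in which N is any base. The promoters of Rsad2 (chr12:26456453-26456702, minus strand) and Isg15 (chr4:156200819-156201068, minus strand) carry it and are shown in the same way.
Rsad2: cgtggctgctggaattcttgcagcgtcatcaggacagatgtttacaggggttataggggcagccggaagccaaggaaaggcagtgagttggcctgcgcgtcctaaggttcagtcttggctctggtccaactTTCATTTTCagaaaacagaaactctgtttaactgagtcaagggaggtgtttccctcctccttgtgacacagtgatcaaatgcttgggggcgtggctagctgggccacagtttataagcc
Isg15: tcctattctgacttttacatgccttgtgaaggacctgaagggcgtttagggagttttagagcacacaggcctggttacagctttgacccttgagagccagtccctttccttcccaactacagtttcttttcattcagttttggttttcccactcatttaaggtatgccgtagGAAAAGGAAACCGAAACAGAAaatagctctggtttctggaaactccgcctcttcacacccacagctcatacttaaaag
The match in Rsad2 began at base -119 and was on the opposite strand, and Isg15 had 3 matches, from bases -78, -72 and -66, that overlapped each other. On either strand the letters were in 18 of 26 promoters of the list (69.2%), against 9.01% of the promoters of all tested genes and 9.39% of those of genes called lower.

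Rsad2 encodes viperin, an enzyme that makes a chain terminator of viral RNA. It was at 268, 295, 312, 337 and 226 CPM in vehicle mice and at 18.2, 20.6, 16.6, 16.7 and 13.4 CPM in oxaliplatin mice, and fell by 4.07 ± 0.15 on the log2 scale (adjusted p = 7.10e-09). Isg15, which encodes a ubiquitin-like modifier, was at 26.9, 32.3, 37.5, 36.7 and 26.9 CPM in vehicle mice and at 3.77, 5.14, 5.197, 3.65 and 2.56 CPM in oxaliplatin mice (log2 fold change -2.98 ± 0.20, adjusted p = 3.36e-07). The spread within each group was small beside the distance between the groups for both genes. Oas3, an enzyme gene of the antiviral RNA decay pathway, fell by 1.96 ± 0.16 (adjusted p = 1.44e-06), and Irf7, the gene of a regulator of type I interferon, by 1.51 ± 0.11 (log2 scale, adjusted p = 7.87e-07). Cxcl9 and Gbp2, which interferon gamma induces, rose. Cxcl9, a chemokine gene for activated T cells, was at 5.00, 7.16, 5.51, 9.18 and 4.26 CPM in vehicle mice and at 34.2, 44.9, 60.2, 74.9 and 18.5 CPM in oxaliplatin mice, without overlap (log2 fold change 2.90 ± 0.36, adjusted p = 8.02e-05). Gbp2, which encodes a guanylate-binding protein, rose by 1.67 ± 0.28 on the log2 scale (adjusted p = 0.00056), with vehicle mouse 4 a little above oxaliplatin mouse 5.

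Many chemokine and complement genes rose, with 15 of 27 tested chemokine genes higher and 2 lower and 10 of 18 complement genes higher and 0 lower. Over all tested genes 11.6% were higher and 11.8% lower. Among these rises were Pf4 and Ppbp, which the megakaryocyte list also holds, and Cfd, which the adipocyte list also holds. Ccl8 encodes an attractant of monocytes and lies at chr11:82115185-82116799. It was at 0.190, 0.0582, 0.378, 0.684 and 0.260 CPM in vehicle mice and at 236, 198, 98.9, 164 and 88.2 CPM in oxaliplatin mice (log2 fold change 8.93 ± 0.48, adjusted p = 2.99e-07). No vehicle mouse reached 1 CPM, and mouse 5 was the lowest of the oxaliplatin mice. Its neighbours Ccl2, Ccl7, Ccl11 and Ccl12 rose too, in a run of 6 genes from 80810175 to 82116799 on chromosome 11. Ccl2, the main attractant of monocytes, rose from between 0.317 and 0.617 CPM to between 1.21 and 5.61 CPM (log2 fold change 2.85 ± 0.40, adjusted p = 0.000116), and Ccl12 by 5.80 ± 0.49 (log2 scale, adjusted p = 2.07e-06). Cxcl13, the attractant of B cells, was at 0.348, 0, 0.0630, 0.0570 and 0.292 CPM in vehicle mice and at 7.95, 4.33, 11.4, 17.4 and 1.75 CPM in oxaliplatin mice (log2 fold change 5.82 ± 0.80, adjusted p = 0.000174). C4b, the gene of complement component 4, was at 74.7, 81.5, 80.5, 104 and 69.7 CPM in vehicle mice and at 522, 286, 289.7, 479 and 247 CPM in oxaliplatin mice, without overlap (log2 fold change 2.15 ± 0.21, adjusted p = 8.66e-06). C1qa, which encodes a chain of C1q and is made by macrophages, rose by 1.37 ± 0.17 (log2 scale, adjusted p = 5.79e-05), while C3, the central component, was at 763 to 962 CPM in vehicle mice and at 386 to 895 CPM in oxaliplatin mice and was not called (adjusted p = 0.0778).

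A run of 10 serpin genes on chromosome 12, from 104028769 to 104414329, rose with a median log2 fold change of 1.98. Serpina3g, which encodes an inhibitor of cathepsins in blood cells, was at 6.30, 8.29, 6.49, 9.92 and 8.90 CPM in vehicle mice and at 40.2, 58.9, 43.9, 44.6 and 41.03 CPM in oxaliplatin mice (log2 fold change 2.52 ± 0.16, adjusted p = 2.09e-07). Serpina3n, an acute-phase protease inhibitor gene, rose from between 12.9 and 22.004 CPM to between 55.5 and 103 CPM (log2 fold change 2.14 ± 0.18, adjusted p = 2.07e-06). These genes arose by duplication and share sequence, so single values are uncertain. Of antigen presentation genes, 1 of 14 class I genes rose and 0 fell, and 1 of 13 class II genes rose and 4 fell, against 23.3% called over all tested genes. H2-Ob, a modulator of class II loading that B cells use, fell by 1.81 ± 0.23 on the log2 scale (adjusted p = 6.19e-05), and the class II count of falls was 2 without vehicle mouse 2 or 5.

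Some genes of fuel use rose. Of 22 tested glycolysis genes, 11 rose and 0 fell, and of 17 genes of fatty acid oxidation, 6 rose and 0 fell. Pdk4, which encodes the kinase that shuts off pyruvate entry into mitochondria, was at 1.96, 1.75, 1.39, 1.74 and 2.01 CPM in vehicle mice and at 18.2, 15.4, 23.2, 16.6 and 16.3 CPM in oxaliplatin mice. The groups were far apart with little spread (log2 fold change 3.34 ± 0.16, adjusted p = 4.50e-08). Of 20 tested hypoxia targets outside glycolysis, 10 rose and 1 fell, among them Bnip3, which encodes a receptor for the removal of mitochondria, from between 2.92 and 3.90 CPM to between 12.5 and 20.6 CPM (log2 fold change 2.14 ± 0.17, adjusted p = 1.25e-06). edgeR called 0 of 27 respiratory chain genes of the nuclear genome and 0 of 42 ribosomal protein genes, of which 5 and 1 had an unadjusted p under 0.05 and DESeq2 called 0, with median log2 fold changes of 0.22 and 0.06. Ndufs3, Sdhc, Sdhd and Cox5a of the respiratory chain had an adjusted p under 0.05 but missed the fold threshold (log2 fold changes 0.40, 0.37, 0.46 and 0.46). Of 21 tested genes of cholesterol synthesis 3 rose and 0 fell, against 11.6% higher and 11.8% lower over all tested genes, while 0 rose and 2 fell without oxaliplatin mouse 3. Of 15 mitochondrial transcripts, 2 fell, and their sum was 6734, 2065, 1636, 6890.2 and 5694 CPM in oxaliplatin mice 1 to 5 against 6218 to 6782 CPM in vehicle mice.

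Most glucocorticoid-responsive genes rose. Of 13 tested glucocorticoid-responsive genes, 10 rose and 0 fell. The tested members not called were Tsc22d3, Dusp1 and Per1 (adjusted p = 0.596, 0.425 and 0.0637). Npas2 and Igfbp3, named below, were not members of that list. Angptl4, an inhibitor of lipoprotein lipase that fat cells also make, was at 10.9, 8.32, 9.01, 14.4 and 10.3 CPM in vehicle mice and at 58.3, 44.9, 78.4, 97.8 and 36.8 CPM in oxaliplatin mice (log2 fold change 2.58 ± 0.26, adjusted p = 1.32e-05). Npas2, a partner in the circadian clock, rose from between 1.11 and 1.54 CPM to between 4.14 and 8.46 CPM (log2 fold change 2.46 ± 0.22, adjusted p = 3.61e-06), and Mt1, a metallothionein gene that answers to metals and glucocorticoids, from between 18.2 and 23.4 CPM to between 48.2 and 77.8 CPM (2.84-fold, adjusted p = 2.86e-06). Igfbp3, which binds insulin-like growth factors in the blood, was at 7.82, 9.37, 13.04, 11.4 and 7.47 CPM in vehicle mice and at 289, 286, 25.4, 49.8 and 218 CPM in oxaliplatin mice. It rose by 4.14 ± 0.66 (log2 scale, adjusted p = 0.000731), with oxaliplatin mice 3 and 4 well below the other 3. Genes of the antioxidant regulator NRF2 and of glutathione went in both directions, with 8 of 23 tested genes higher and 6 lower, and 5 higher without oxaliplatin mice 2 and 3. Me1, which encodes malic enzyme and serves fat synthesis as well, rose by 3.28 ± 0.38 (adjusted p = 3.44e-05), and Gclc, which encodes the rate-limiting enzyme of glutathione synthesis, fell by 1.60 ± 0.16 on the log2 scale (adjusted p = 7.61e-06). Of 13 tested transporters of platinum drugs, 2 rose and 3 fell, against 11.6% higher and 11.8% lower over all tested genes. Slc22a3, an organic cation transporter, rose by 1.00 ± 0.17 (adjusted p = 0.000542), and Atp7b, a copper exporter, fell by 1.21 ± 0.26 on the log2 scale (adjusted p = 0.00341). Of 21 genes of the unfolded protein and integrated stress responses, 8 rose (5 without oxaliplatin mice 3 and 4) and 0 fell, and of 20 immediate early genes, 6 rose and 1 fell.

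Some genes were near 0 in one group. In 18 genes, 14 of them protein-coding, each vehicle mouse had 3 counts or fewer and each oxaliplatin mouse 10 or more, and in 7 genes the reverse held. Gm6093, a long noncoding RNA of chromosome 13, had 0, 0, 2, 0 and 0 counts in vehicle mice 1 to 5 and 716, 373, 637, 1154 and 622 counts in oxaliplatin mice 1 to 5. Ccl11, the gene of eotaxin, had 0 counts in each vehicle mouse and 29, 31, 18, 18 and 11 counts in oxaliplatin mice, so that it was at least 6.36-fold higher against the floor of 3 counts per library. Ch25h, which makes 25-hydroxycholesterol, had 0, 0, 0, 3 and 2 counts in vehicle mice and 69, 42, 70, 144 and 62 counts in oxaliplatin mice. The single protein-coding gene of the reverse kind was Grm7, a glutamate receptor gene, with 17, 16, 17, 17 and 31 counts in vehicle mice and 0, 0, 0, 0 and 2 counts in oxaliplatin mice. Among other noncoding RNA genes, Gm10371 fell from between 9.36 and 12.2 CPM to between 0.251 and 0.886 CPM (log2 fold change -4.57 ± 0.32, adjusted p = 5.36e-07) and Gm32051 rose from between 1.08 and 2.62 CPM to between 9.503 and 16.8 CPM (log2 fold change 2.99 ± 0.27, adjusted p = 4.01e-06). Counting was not stated to use strand, so reads of overlapping and antisense genes cannot be told apart.

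By count, Hba-a1, the alpha globin gene, ranked first in vehicle mice at 13464 ± 2770.4 CPM, and Actb, the gene of beta-actin, ranked second in oxaliplatin mice at 11468 ± 1355 CPM (SD, n = 5). Rn7sk, a small RNA that restrains transcription elongation, fell from 11426 ± 390.5 CPM to 6948 ± 1035 CPM (log2 fold change -0.72 ± 0.14, adjusted p = 0.0014), without overlap between the groups. With library size alone its log2 fold change was -0.57, under the fold threshold.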

How the data were processed

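Raw counts per gene were deposited by the authors as 1 table for bone marrow, with 1 column for each of the 10 mice. RNA was extracted from marrow kept in RNAlater, reads were aligned with STAR to the mouse genome with an Ensembl annotation, and uniquely aligned reads were counted per gene. The library chemistry and the counting program are given in different ways in the sources used here, and whether counting used strand is not given. In every library genes with 2 counts were 2.10 to 2.49 times as frequent as genes with 1 count, so both ends of a read pair may have been counted separately. Counts halved and rounded were therefore tried as an alternative.

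Of 55774 lines, 287 repeated an identifier with the same counts and 1 held a missing value, which left 55486 genes, and 0 further columns of samples were present. Symbols and gene classes came from the deposited table. Positions came from GENCODE mouse release 21 (GRCm38), and 55227 genes had a position. Total counts were 30660153 to 41140527 per library, and 3 counts in a library corresponded to 0.0668 to 0.0975 CPM. Intervals and floors cover counting error only.

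Low genes were removed with filterByExpr at 10 counts, TMM factors were computed, and treatment was the only term of the edgeR quasi-likelihood test (edgeR 4.0.16, limma 3.58.1, R 4.3.3). Adjusted p-values are Benjamini-Hochberg over all 22363 tested genes, and a gene was called at an adjusted p under 0.05 and a fold beyond 1.5. Standard errors of log2 fold changes were the log2 fold change divided by the square root of the F statistic. CPM values are TMM-scaled and given in the order of mice 1 to 5, and SDs are over 5 mice. Single values per library were compared by exact permutation tests. DESeq2 1.42.0 was an alternative, as were other scalings, filters, thresholds, a Y-linked covariate, a replicate block and the omission of each mouse. Python 3.11.15, pandas 2.3.3, numpy 2.4.6 and matplotlib 3.10.9 were used for tables and figures. Tested on simulated counts for this comparison (21898 genes), the fit called 75% of genes changed 2-fold and 94% of those changed 4-fold, with 7 false calls.

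Nothing in the labels says more of the replicates than that they are separate samples, so p-values measure the spread between these samples. The genes and lists were chosen with earlier results of these data known. Named genes were the 15 largest rises and falls among called protein-coding genes whose groups did not overlap and whose log2 CPM averaged 1 or more, immunoglobulin and T cell receptor segments and genes that the study's text names left out, the 3 called members with the largest change and the 2 with the highest CPM in each list, with the same preference for genes the text does not name, the 10 genes with the smallest p, the 5 largest rises and falls of long noncoding RNAs, the most abundant genes, genes near 0 in one group and the members of the 5 longest runs. Only some of these are described, and 35 further genes were named after their values were seen, and some results are not reported here. Kidney libraries were not used here.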

Additional observations from a re-analysis of the deposited data

Results flagged for a closer look

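A single mouse lay far from the other 4 of its group in 26 of the 402 groups of 5 values compared (6.47%), and chance alone flags about 1 in 20 groups. Oxaliplatin mouse 5 was low for Cdkn1a at 79.2 CPM (others 146 to 153), for Zmat3 at 62.8 CPM (others 88.5 to 94.5) and for Eda2r at 4.10 CPM (others 8.05 to 10.1), all of them p53 targets. The same mouse was low for Car3 at 164 CPM (others 705 to 1150.0) and for Pparg at 33.3 CPM (others 52.8 to 59.9). It also had the lowest Ddx3y, at 26.7 CPM against 51.1 to 57.6 CPM in the others. Grm7 was at 0.0539 CPM in oxaliplatin mouse 5 and at 0 in the other oxaliplatin mice.

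Gata1 was high in oxaliplatin mouse 3, at 191 CPM against 88.5 to 108 CPM. Npas2 was low in oxaliplatin mouse 4, at 4.14 CPM against 7.34 to 8.46 CPM, as was the summed level of glycolysis genes, at 6272 CPM against 7641 to 8239 CPM. In oxaliplatin mouse 2 Slamf1 was low at 36.1 CPM (others 43.4 to 46.6) and Serpina3g high at 58.9 CPM (others 40.2 to 44.6). Brca2 was low in oxaliplatin mouse 1, at 37.4 CPM against 50.6 to 56.7 CPM.

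Among vehicle mice, mouse 5 was low for division genes: Mki67 was at 2719 CPM (others 3232 to 3296), Prc1 at 142 CPM (others 167 to 172) and Brca1 at 109.9 CPM (others 129 to 135), and the summed mitosis list at 7197 CPM (others 8496 to 8971). Slc30a10 was also low in that mouse, at 8.45 CPM against 12.4 to 14.3 CPM, while Grm7 was high, at 1.01 CPM against 0.466 to 0.538 CPM. Vehicle mouse 1 was low for Ltf, at 3534 CPM against 4104 to 4289.9 CPM, and for the summed mature neutrophil list, at 9387 CPM against 10740 to 11312 CPM. Gbp2 was high in vehicle mouse 4, at 16.1 CPM against 8.17 to 9.81 CPM, and that mouse had the fewest genes detected, at 29108 against 29917 to 30229. Cma1 and Gm6093 were at 0.063 CPM in vehicle mouse 3, and Tpsb2 at 0.0325 CPM in vehicle mouse 5, with 0 in the other vehicle mice. No explanation of these values was tested.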

How the results depend on the processing

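The count of 5221 called genes lay between 4725 (without vehicle mouse 2) and 5727 (without oxaliplatin mouse 5) when 1 mouse was left out, and between 4940 (counts halved) and 5740 (Y-linked covariate) under other fits at the same thresholds. A stricter rule lowered it by its own construction: a test against a 1.5-fold change called 2730 genes (1347 higher, 1383 lower), and a fold beyond 2 left 3231 (1613 higher, 1618 lower). The difference in the share of the 100 genes with the most counts was -2.63 percentage points, -2.32 to -2.85 without 1 mouse and -0.519 without the hemoglobin genes (exact permutation p = 0.373). The difference in genes detected was 55 to 590 without 1 mouse. The median log2 fold change of the mast cell list was -0.33 and turned to 0.17 with the Y-linked covariate, and that of iron handling turned to 0.0015 with library size alone. The cause was not tested.

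Replicate numbers did not pair the mice: deviations from the group means of mice with the same number correlated at 0.051, 0.033, -0.023, -0.118 and 0.228, and 1 of 5 vehicle mice correlated best with its own number. With the replicate block 4968 genes were called, 4773 of them shared, and 0 of the 127 named genes that were called lost the call. In all, 2880 of 2895 pairs of a named gene and a setting kept the call, 12 lost it, 3 gained it and 0 reversed. Leaving out oxaliplatin mice 3 and 4 together moved Mmp12, Comp, Cxcl13, Mmp2 and Plin1 down by over 1.5 times, to log2 fold changes of 4.50, 4.34, 4.94, 2.32 and 6.12. Depth limits statements on genes near 3 counts in a library.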
